A study of Mus musculus with 24 samples.

Results

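The Ugt1a locus of the mouse encodes several enzymes whose transcripts share their downstream exons. Its 8 annotated genes, Ugt1a1, Ugt1a2, Ugt1a5, Ugt1a6a, Ugt1a6b, Ugt1a7c, Ugt1a9 and Ugt1a10, were taken by symbol from a count table of 24015 genes. All 8 were found. The counts came from poly(A)-selected RNA of livers of female B6C3F1 mice, bought at 5-6 weeks of age. The mice were gavaged for 21 days with corn oil alone (control) or with furan at 8 mg/kg body weight per day in corn oil, and were killed 4 h after the final gavage. Every liver was cut into a piece that was frozen at once and 2 pieces that went into formalin, for 18 h or for 3 wk, before paraffin embedding (FFPE). Counts could be tied to a labelled animal for 3 control and 3 furan fresh-frozen pieces, and for 4 control and 4 furan pieces at each fixation time. Furan injures the liver through a reactive dialdehyde formed by oxidation in hepatocytes.

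UDP-glucuronosyltransferases join glucuronic acid from UDP-glucuronic acid to bilirubin, phenols and many drugs, which makes them soluble enough to leave in bile or urine. In the Ugt1a locus each enzyme has its own promoter and its own first exon, which encodes the part that binds the substrate, and all of them splice to the same downstream exons, which encode the part that binds UDP-glucuronic acid and the membrane anchor. A read that lies wholly in the shared exons therefore cannot say which enzyme it came from.

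The exon junctions are shown because they mark where the identity of a transcript ends. Each line gives the last 30 bases of a member's own exons in lower case and the first 30 bases of the shared exons in capitals, 5′ to 3′ on the plus strand, from the GENCODE M21 models on GRCm38.
Ugt1a1: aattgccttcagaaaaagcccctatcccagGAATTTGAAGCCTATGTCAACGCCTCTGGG
Ugt1a2: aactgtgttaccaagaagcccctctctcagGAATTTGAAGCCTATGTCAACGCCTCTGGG
Ugt1a5: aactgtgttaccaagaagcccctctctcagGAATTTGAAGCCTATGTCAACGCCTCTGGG
Ugt1a6a: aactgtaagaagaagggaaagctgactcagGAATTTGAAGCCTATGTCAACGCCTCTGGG
Ugt1a6b: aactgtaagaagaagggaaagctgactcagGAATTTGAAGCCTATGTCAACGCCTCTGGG
Ugt1a7c: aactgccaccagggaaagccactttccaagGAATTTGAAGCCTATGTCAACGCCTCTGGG
Ugt1a9: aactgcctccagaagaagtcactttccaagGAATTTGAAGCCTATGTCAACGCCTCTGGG
Ugt1a10: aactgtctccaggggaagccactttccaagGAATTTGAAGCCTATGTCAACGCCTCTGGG
The capitals were identical in all 8 members. The 30 bases before them were identical between Ugt1a2 and Ugt1a5 and between Ugt1a6a and Ugt1a6b, so reads confined to these junctions separated neither pair.

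On GRCm38 the locus lay on the plus strand of chromosome 1. The own exons began at position 88055411 for Ugt1a10, the most distant from the shared exons, then at 88070800 for Ugt1a9, 88095064 for Ugt1a7c, 88103252 for Ugt1a6b, 88134809 for Ugt1a6a, 88166012 for Ugt1a5, 88200601 for Ugt1a2 and 88211959 for Ugt1a1, the nearest. The shared exons began at 88215044. The deposited counts were made on the older build mm9, whose coordinates were not used here. Ugt1a6a and Ugt1a6b had 2 own exons and the other members 1, with 879 to 986 nt of own sequence per member and 735 nt of shared coding sequence. The own sequence ended 1311 nt before the nearer annotated transcript end and 2316 nt before the farther one, which the RefSeq transcripts of 7 members use.

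**Figure D1:**
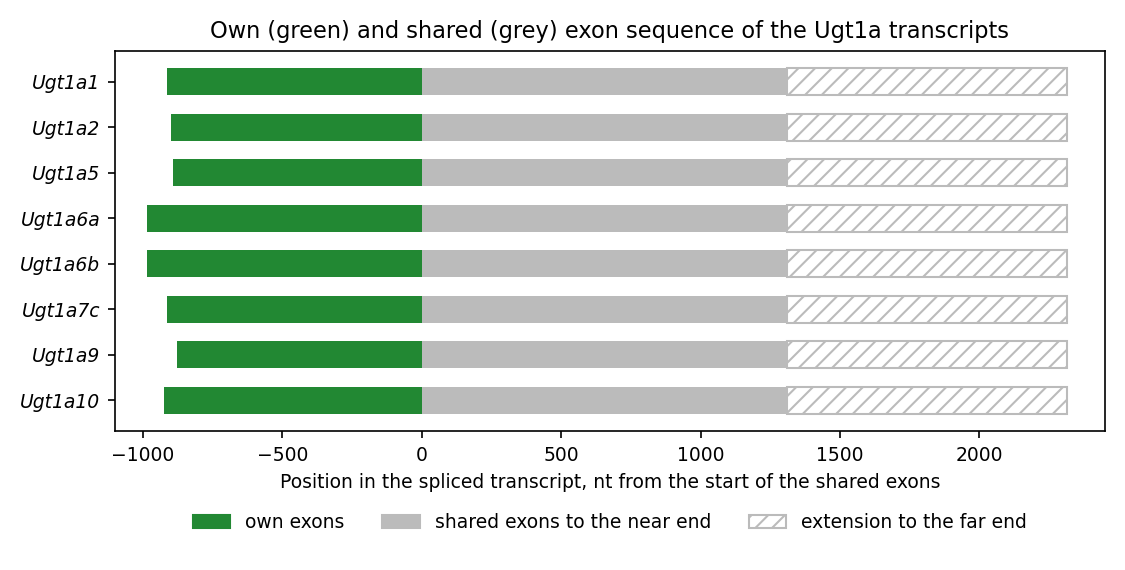
Spliced transcripts of the 8 Ugt1a genes, drawn in nucleotides from the start of the shared exons (GENCODE M21 and RefSeq models). Green bars are each gene's own exons (879 to 986 nt), grey bars the shared exons to the nearer end (1311 nt), and hatched bars the extension to the farther end (2316 nt): the sequence that sets the genes apart lies at the 5′ side. GENCODE gives 998 nt of the extension to Ugt1a7c alone, while the RefSeq transcripts of 7 members reach the farther end.

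The own exons differed in how far reads could tell them apart. Over aligned bases Ugt1a6a and Ugt1a6b were 97.4% identical, and 54.5% of the 50-nt stretches of Ugt1a6a also occurred in Ugt1a6b. Ugt1a9 and Ugt1a10 were 91.6% identical, with 5.82% of the 50-nt stretches of Ugt1a10 found in Ugt1a9. Ugt1a2 and Ugt1a5 were 81.6% identical, with 7.87% of the stretches of Ugt1a2 found in Ugt1a5, and no 50-nt stretch of Ugt1a1 occurred in another member. The split of counts within the Ugt1a6a and Ugt1a6b pair is therefore uncertain, and both the single genes and their sum are given. How the authors' counting treated reads of the shared exons is not given in the sources used here. In the fresh-frozen libraries Ugt1a2 had 2 to 11 counts where Ugt1a1 had 15907 to 29752, so shared-exon reads had not been credited to every member.

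The libraries held 33101755 to 58048387 counts (fresh-frozen), 16269854 to 22494012 (FFPE 18 h) and 3666173 to 11780691 (FFPE 3 wk). The locus held 24434 to 46069 counts per fresh-frozen library, 268 to 895 per 18 h library and 125 to 1057 per 3 wk library, so FFPE values rest on few counts. The hepatocyte markers, 6 genes that include Alb and Apoa1, summed to 66591 to 139975 CPM (counts scaled by the total of the library) in every library. The 6 kidney tubule markers summed to at most 0.679 CPM. The 6 intestinal epithelium markers summed to 24.1 to 41.97 CPM in fresh-frozen, 55.5 to 143 CPM in 18 h and 42.9 to 90.3 CPM in 3 wk libraries, most of it Fabp2, while the intestinal transcription factors Cdx1 and Cdx2 were at 0 counts in all 22 libraries. The 7 stomach and pancreas markers summed to 10.3 to 17.2, 54.4 to 114.5 and 42.3 to 95.5 CPM in the same order, most of it Cela1, with Tff1 and Prss1 at 0 in all libraries. The RNA integrity numbers were above 8.9 for fresh-frozen and 1.3 to 2.4 for FFPE pieces per the labels. In livers measured in bulk, fewer cells of a type and less RNA per cell cannot be told apart.

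In fresh-frozen control livers most counts of the locus stood under Ugt1a1, the enzyme that conjugates bilirubin. The 8 genes together had 727, 776 and 777 CPM in control animals 02, 04 and 06, a mean of 760.3 ± 28.5 (SD, n = 3). Ugt1a1 had 493, 519 and 512 CPM in the same animals, or 66.8% ± 0.917 of the locus (SD, n = 3). Levels of different genes were set side by side per kilobase of own sequence. This length takes no account of own sequence that 2 members share or of shared-exon reads that may have been credited to 1 member. The order of levels and the share of Ugt1a1 are therefore uncertain. Ugt1a1 stood at 556 ± 14.7 CPM per kb (SD, n = 3). Ugt1a9, which conjugates bulky phenols, followed at 94.4 ± 9.58 CPM per kb, and Ugt1a5 at 88.9 ± 7.48 CPM per kb; the ranges of these 2 genes overlapped. Ugt1a6a and Ugt1a6b, which conjugate small planar phenols, stood at 47.6 ± 2.17 and 42.8 ± 2.85 CPM per kb and also overlapped. Far below came Ugt1a10 at 0.635 ± 0.115 CPM per kb, a close relative of Ugt1a9, and last Ugt1a7c at 0.206 ± 0.0972 and Ugt1a2 at 0.195 ± 0.0763 CPM per kb, whose ranges overlapped.

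In fresh-frozen livers 2 of the 8 genes were higher after furan, while the sum of the locus did not pass the test. Ugt1a6a rose 1.58-fold and Ugt1a10 rose 2.95-fold, and no member fell. These were 2 of the 7 members with enough counts to test, against a background of 15.7% of all 13794 genes tested (8.21% higher and 7.47% lower), by edgeR's quasi-likelihood test at an adjusted p under 0.05. Ugt1a2, with 2 to 11 counts, was not tested.

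Ugt1a6a had 45.2, 46.3 and 49.3 CPM in control animals 02, 04 and 06 and 75.6, 85.9 and 74.0 CPM in furan animals 41, 43 and 44. Every furan animal was above every control animal. The log2 fold change was 0.66 ± 0.08 (SE), with an edgeR adjusted p of 0.00298 over all genes.

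Ugt1a10 had 0.711, 0.523 and 0.530 CPM in the control animals and 1.71, 1.89 and 1.90 CPM in the furan animals. These levels rest on 27 to 32 counts per control library and 63 to 99 counts per furan library, and the groups did not overlap. The log2 fold change was 1.56 ± 0.20 (SE), with an edgeR adjusted p of 0.0036. At its higher level Ugt1a10 still made up 0.248% ± 0.0295 of the locus (SD, n = 3).

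The other tested members did not pass. Ugt1a6b had 40.9, 40.2 and 45.4 CPM in control and 38.2, 36.1 and 34.8 CPM in furan animals, which did not overlap, with a log2 fold change of -0.29 ± 0.09 (SE) and an edgeR adjusted p of 0.0566 (0.0424 by DESeq2). In 3 of the 7 tested members (Ugt1a6a, Ugt1a6b and Ugt1a10) the groups did not overlap, which 39.0% of all genes also showed. Ugt1a1 had 513, 426 and 481 CPM in furan animals 41, 43 and 44, with animal 41 inside the control range and a log2 fold change of -0.18 ± 0.09 (SE, edgeR adjusted p = 0.235). Ugt1a5 had 72.7, 79.0 and 86.1 CPM in control and 81.5, 52.2 and 58.1 CPM in furan animals, so that furan animal 41 stood with the controls and the other two below them. Its log2 fold change of -0.38 ± 0.17 (SE) had an edgeR adjusted p of 0.163, and of 0.0162 without furan animal 41 (log2 fold change -0.61). Ugt1a9 (0.02 ± 0.07 SE, edgeR adjusted p = 0.865) had overlapping groups, 74.5 to 91.3 CPM in control and 83.6 to 94.1 CPM in furan animals. Ugt1a7c, with 5 to 22 counts, had a log2 fold change of 0.59 ± 0.43 (SE, edgeR adjusted p = 0.387).

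**Figure D2:**
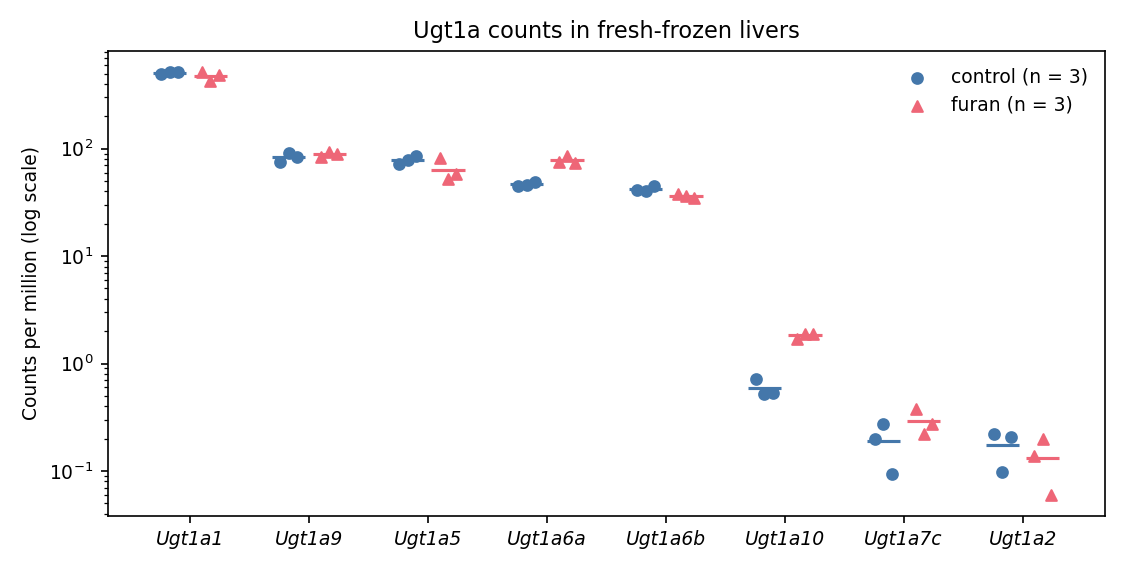
CPM of the 8 Ugt1a genes in fresh-frozen livers (log scale), one point per animal, control (blue circles, n = 3) and furan (red triangles, n = 3), with group means as lines. Ugt1a6a (45.2 to 49.3 against 74.0 to 85.9 CPM) and Ugt1a10 (0.523 to 0.711 against 1.71 to 1.90 CPM) are the genes that passed the test, and Ugt1a1 tops the scale in both groups.

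Summed over the 8 genes, the locus had 794, 697 and 738 CPM in furan animals 41, 43 and 44 against 727, 776 and 777 CPM in the control animals. The ranges overlapped, with furan animals both above and below the controls. The log2 fold change of the sum was -0.11 ± 0.09 (SE, edgeR adjusted p = 0.440).

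The make-up of the locus was described by each member's share of its counts. The share of Ugt1a6a was 6.17% ± 0.196 (SD, n = 3) in control and 10.6% ± 1.50 (SD, n = 3) in furan livers, without overlap. The share of Ugt1a1 was 66.8% ± 0.917 in control and 63.6% ± 2.13 in furan livers, also without overlap. Each of these and the share of Ugt1a10 had a two-sided exact permutation p of 0.1, the smallest that 3 against 3 animals allow, and an adjusted p of 0.549 over the 24 shares tested in all pieces.

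Because Ugt1a6a and Ugt1a6b share so much sequence, their counts were also read together. Of the counts of the pair, Ugt1a6a took 52.1% to 53.5% in the 3 control and 66.4% to 70.4% in the 3 furan livers. The sum of the pair had 89.1 ± 4.86 CPM in control and 114.9 ± 6.73 CPM in furan livers (SD, n = 3 each). It rose by 0.29 ± 0.08 on the log2 scale (SE, edgeR adjusted p = 0.0418), a smaller change than that of Ugt1a6a alone.

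The rise of Ugt1a6a and Ugt1a10 depended on the libraries that shared the estimate of spread. When all 6 groups of the study were fitted in a single model, with the FFPE libraries in the estimate, both had an edgeR adjusted p of 1 at nearly the same fold changes (0.65 and 1.54). When each fresh-frozen library was left out in turn, Ugt1a6a had edgeR adjusted p-values of 0.0044 to 0.0149 and Ugt1a10 of 0.0072 to 0.0219.

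The promoters of the genes that rose, and of Ugt1a9, the close relative of Ugt1a10 that did not pass, are shown for comparison. Each line is the 250 bases before the RefSeq start on GRCm38.p6, plus strand, 5′ to 3′, with capitals marking GTTAAT or its reverse complement, a motif of the hepatocyte factor HNF1. The regions are chr1:88134559-88134808, chr1:88055161-88055410 and chr1:88070529-88070778 in the order given.
Ugt1a6a: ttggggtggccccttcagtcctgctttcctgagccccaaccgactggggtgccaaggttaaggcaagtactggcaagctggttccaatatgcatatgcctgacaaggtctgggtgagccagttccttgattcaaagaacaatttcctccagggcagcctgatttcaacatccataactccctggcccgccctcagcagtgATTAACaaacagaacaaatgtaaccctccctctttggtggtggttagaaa
Ugt1a10: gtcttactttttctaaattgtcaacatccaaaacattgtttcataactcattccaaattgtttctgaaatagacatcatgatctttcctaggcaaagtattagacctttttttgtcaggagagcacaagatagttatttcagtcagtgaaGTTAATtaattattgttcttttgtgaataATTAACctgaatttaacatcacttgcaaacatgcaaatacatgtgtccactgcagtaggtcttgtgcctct
Ugt1a9: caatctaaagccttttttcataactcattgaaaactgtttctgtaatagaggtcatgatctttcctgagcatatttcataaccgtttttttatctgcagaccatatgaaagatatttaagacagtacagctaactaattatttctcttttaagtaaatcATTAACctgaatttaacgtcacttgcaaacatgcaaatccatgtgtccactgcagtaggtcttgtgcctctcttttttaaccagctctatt
RefSeq promoters, 250 bases before to 50 bases after the start, were matched for 7 of the 8 members, all but Ugt1a6b, and searched on both strands. GTTAAT occurred in those of Ugt1a1, Ugt1a6a, Ugt1a9 and Ugt1a10 (2 matches in the last) and in 7.10% of all 32851 promoters. TGACNNNGC, the core of the antioxidant response element read by NRF2, was in none of the 7 and in 12.4% of all promoters. GCGTG, the core of the element read by the aryl hydrocarbon receptor, was in that of Ugt1a5 alone among the 7 and in 32.4% of all promoters. The searched motifs do not overlap each other in these regions, and matches are letters in a short window only.

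Genes around the locus were read from lists on UDP-glucuronic acid supply, bilirubin handling, the other UDP-glycosyltransferases, regulators known for the locus and targets of those regulators. Of all 13794 genes tested in fresh-frozen livers, 8.21% were higher and 7.47% lower after furan. In the list of UDP-glucuronic acid supply and glucuronate use, 5 of 8 genes rose and 1 fell in fresh-frozen livers (list median 0.34 on the log2 scale, against -0.01 over all genes). Those that rose were Ugdh, the transporters Slc35b1 and Slc35d1, and Gusb and Akr1a1, which act on glucuronides and glucuronate. The gene that fell was Rgn, by 0.37 on the log2 scale (edgeR adjusted p = 0.0376). Ugp2, which makes the UDP-glucose that Ugdh oxidises, had a log2 fold change of -0.34 (edgeR adjusted p = 0.0637). Ugdh, which makes UDP-glucuronic acid, rose from 105.2 ± 3.44 to 229 ± 8.15 CPM (SD, n = 3 each; log2 fold change 1.05, edgeR adjusted p = 0.000254). Slc35b1, of the nucleotide sugar transporter family, rose by 0.45 and Gusb, which removes glucuronic acid, by 0.37 on the log2 scale (edgeR adjusted p = 0.0262 and 0.0113). In FFPE livers Ugdh rose at both fixation times, by 1.13 at 18 h (edgeR adjusted p = 5.28e-05) and 1.45 at 3 wk (edgeR adjusted p = 0.000569) on the log2 scale.

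Of 11 genes of bilirubin formation and transport, 3 rose and 2 fell (median -0.18), against 8.21% of all genes higher and 7.47% lower. Hmox1, which opens the haem ring on the way to bilirubin, rose from 13.3 ± 2.98 to 61.9 ± 35.4 CPM (SD, n = 3 each; log2 fold change 2.17, edgeR adjusted p = 0.0127). Hmox2 fell by 0.43 on the log2 scale (edgeR adjusted p = 0.00904). The efflux pump Abcc4 rose by 1.14 (edgeR adjusted p = 0.0104), and the uptake carrier Slco1b2 fell by 0.55 on the log2 scale (edgeR adjusted p = 0.0156). Of the 10 other UDP-glycosyltransferases, 2 rose and 3 fell (median 0.08): Ugt2b37 rose by 2.05 (edgeR adjusted p = 0.0311), Ugt2b35 by 1.09 (edgeR adjusted p = 0.000451), and Ugt2a3 fell by 0.77 (edgeR adjusted p = 0.00218).

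Of 12 regulators, 1 rose and 2 fell (median -0.07), against 8.21% of all genes higher and 7.47% lower. Nfe2l2, which encodes NRF2, rose by 0.61 (edgeR adjusted p = 0.00449), while Nr1i3, which encodes CAR, fell by 0.70 (edgeR adjusted p = 0.0199) and Rxra fell by 0.31 (edgeR adjusted p = 0.0351) on the log2 scale. Of the 10 tested targets of the regulators, 3 rose and 1 fell (median 0.21). The 3 that rose, Srxn1 by 1.42, Nqo1 by 1.20 and Gclc by 0.81 on the log2 scale, are the 3 NRF2 targets of the list (edgeR adjusted p = 0.000451, 0.000616 and 0.00959). The one that fell was Cyp1a2, a target of the aryl hydrocarbon receptor, by 0.65 (edgeR adjusted p = 0.0237). Cyp1a1 and Tiparp, also targets of this receptor, had log2 fold changes of 0.26 and 0.18 (edgeR adjusted p = 0.444 and 0.312). Cyp2b10, a target of CAR, had a log2 fold change of 0.09 (edgeR adjusted p = 0.853). Among cell type markers, 3 of 6 sinusoidal endothelial genes were lower in furan livers and none of the hepatocyte, cholangiocyte, Kupffer cell or stellate cell genes passed. The summed endothelial level was 342 to 371 CPM in control and 265 to 309 CPM in furan livers, and its part in the results was not tested. Of the 3 tested intestinal markers, Fabp2 fell by 0.76 (edgeR adjusted p = 0.0150). From the 5 lists 15 genes were named for passing in fresh-frozen livers. Cyp1a2, Cyp1a1, Cyp2b10, Tiparp, Slc35d1, Akr1a1, Ugp2, Rgn and Hmox2 were not counted among them. The FFPE pieces include the same livers, so passing again is no independent repeat. Of these 15 genes, 11 also passed at 18 h (8.39% of all genes called) and 5 at 3 wk (0.821%). The shares over all genes give no expected number for genes chosen for passing in fresh-frozen livers. Nfe2l2 passed at neither time, with log2 fold changes of 0.08 at 18 h (edgeR adjusted p = 0.788) and 0.29 at 3 wk (edgeR adjusted p = 0.763).

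In livers fixed for 18 h no Ugt1a gene passed the furan test. The 6 tested members had log2 fold changes of -0.59 to -0.29 against 8.39% of 12832 genes called (3.92% higher and 4.47% lower). None had an unadjusted p under 0.05, which 23.4% of all genes had. The furan and control ranges overlapped in all 6, while they stood apart in 10.1% of all genes. DESeq2 also called none. The locus had 20.8, 13.9, 22.8 and 55.0 CPM in control animals 02, 03, 04 and 06 and 21.6, 35.1, 21.3 and 18.1 CPM in furan animals 41 to 44. Control animal 06 stood above all others, and ribosomal Rn45s took 37.3% of its counts against 6.42% to 16.5% in the other 18 h libraries. The log2 fold change of the sum was -0.49 ± 0.45 (SE, edgeR adjusted p = 0.555), and 0.36 without control animal 06. Ugt1a6a, which rose in the fresh-frozen pieces, had 1.47, 1.50, 2.65 and 3.38 CPM in control and 2.27, 2.52, 1.42 and 1.62 CPM in furan livers, which overlapped.

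In livers fixed for 3 wk no Ugt1a gene passed the furan test either, by edgeR or DESeq2, among the 5 tested, against 0.821% of 12064 genes called (0.298% higher and 0.522% lower). None had an unadjusted p under 0.05, which 10.9% of all genes had. The ranges overlapped in all 5, while they stood apart in 8.56% of all genes. The locus had 73.4, 64.4, 24.8 and 67.4 CPM in control and 60.0, 85.9, 32.1 and 89.7 CPM in furan animals, with low animals in both groups. The log2 fold change of the sum was 0.21 ± 0.34 (SE, edgeR adjusted p = 0.928), and -0.044 without control animal 04, the lowest control library. Ugt1a6a had 9, 22, 0 and 0 counts in control animals 02, 03, 04 and 06 and 32, 40, 7 and 61 counts in furan animals 41 to 44. In CPM the groups overlapped, since furan animal 43 lay below control animals 02 and 03, at 2.45 and 2.27 CPM. The log2 fold change was 1.76 ± 1.52 (SE, edgeR adjusted p = 0.788), and 1.99 with an edgeR adjusted p of 0.0447 in the single model of all 6 groups.

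As a share of the locus, Ugt1a6a took 1.72% ± 1.98 in control and 5.86% ± 0.305 in furan livers fixed for 3 wk (SD, n = 4 each), without overlap. The two-sided exact permutation p was 0.0286, the smallest that 4 against 4 animals allow, and 0.549 after adjustment over the 24 shares. At 18 h the shares were 8.91% ± 2.71 and 8.34% ± 1.76 and overlapped (exact permutation p = 0.714).

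**Figure D3:**
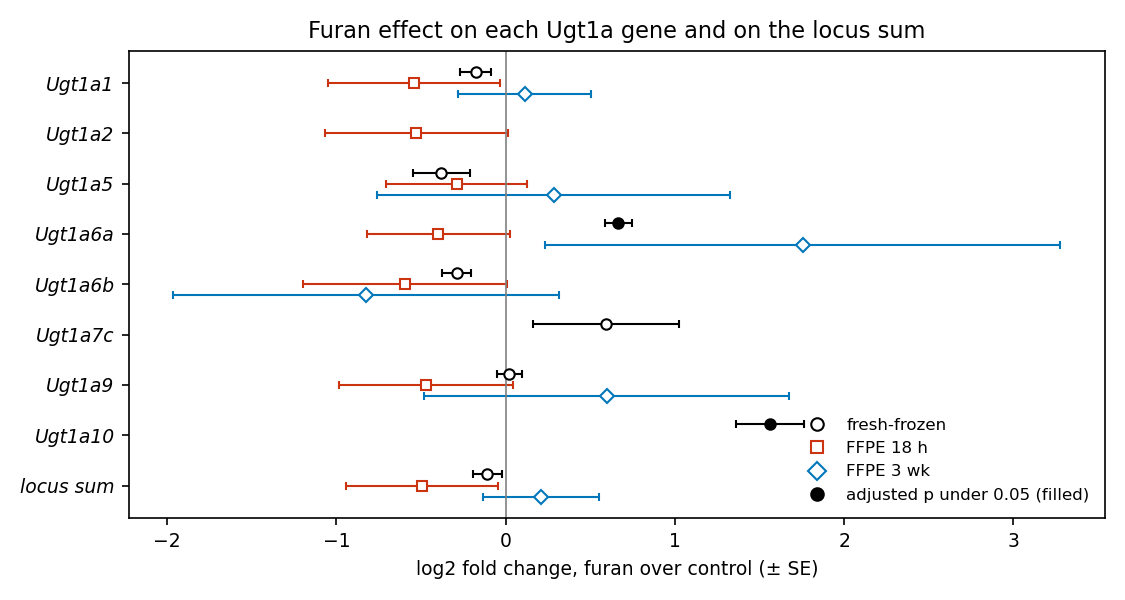
log2 fold change of furan over control with its standard error for each Ugt1a gene and the locus sum, in fresh-frozen (black circles), FFPE 18 h (red squares) and FFPE 3 wk livers (blue diamonds); filled symbols have an adjusted p under 0.05, and genes with too few counts have no symbol. Ugt1a6a (0.66) and Ugt1a10 (1.56) in fresh-frozen livers are the filled points, and standard errors in FFPE livers reach 1.52.

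The difference between the furan responses was tested directly as an interaction. For Ugt1a6a the response at 18 h was below that in fresh-frozen pieces by 1.01 ± 0.40 (SE) on the log2 scale, with an unadjusted p of 0.0223 and an edgeR adjusted p of 1.00 over all genes. At 3 wk the Ugt1a6a response was above that in fresh-frozen pieces by 1.37 ± 0.91 (SE, edgeR adjusted p = 1.00). No gene of the table passed either interaction by edgeR (0% called), and DESeq2 called 1 at 18 h and 19 at 3 wk. An unadjusted edgeR p under 0.05 was held by 455 of 13739 genes at 18 h (3.31%). At 3 wk it was held by 590 of 13156 genes (4.48%). The locus sum had interaction terms of -0.37 ± 0.60 at 18 h and 0.35 ± 0.44 at 3 wk (SE), neither past the threshold.

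The locus was far lower in FFPE than in fresh-frozen pieces. In control livers the locus sum was 19.6-fold lower after 18 h of fixation (log2 fold change -4.30 ± 0.54 SE, edgeR adjusted p = 6.21e-05) and 13.9-fold lower after 3 wk (-3.80 ± 0.32 SE, edgeR adjusted p = 5.79e-05). In furan livers it was 25.9-fold lower at 18 h (-4.69 ± 0.22 SE, edgeR adjusted p = 3.44e-09) and 11.4-fold lower at 3 wk (-3.51 ± 0.27 SE, edgeR adjusted p = 2.57e-06). No FFPE library came near the fresh-frozen range: the highest FFPE value was 89.7 CPM and the lowest fresh-frozen value 697 CPM. Without control animal 06, the high 18 h library, the control value at 18 h was -5.19. The furan and control comparisons use different animals, while the 18 h and 3 wk comparisons share the fresh-frozen libraries, so these values are set side by side only. Fixation cannot be told apart from the extraction kit, the RNA integrity and the amount of tissue, which all differ between fresh-frozen and FFPE pieces per the labels. Among markers of other tissues in control livers, 2 of 3 tested intestinal genes were higher at 18 h, against 34.2% of all genes. Of these, Fabp2 rose by 1.95 on the log2 scale (edgeR adjusted p = 2.74e-06). The 1 tested stomach and pancreas gene, Cela1, rose by 2.93 (edgeR adjusted p = 2.74e-07). At 3 wk 0 of 3 intestinal genes and the 1 tested stomach and pancreas gene (by 2.16) were higher, against 13.2% of all genes. The part of these genes was not tested.

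The 5 abundant genes fell together. In control livers at 18 h, 5 of the 7 tested members fell, against 33.8% of 13034 genes lower (68.0% called in either direction), and at 3 wk 5 of 5 tested members fell, against 13.0% of 12145 genes lower and 13.2% higher (26.2% called). Ugt1a1 had log2 fold changes of -4.48 ± 0.59 (SE) at 18 h and -3.64 ± 0.40 at 3 wk. Those of Ugt1a9 were -4.78 ± 0.46 and -4.47 ± 0.77, and those of Ugt1a5 -4.18 ± 0.37 and -4.49 ± 0.72. For the phenol enzymes they were -4.06 ± 0.31 and -5.59 ± 1.03 (Ugt1a6a), and -4.16 ± 0.48 and -3.72 ± 0.39 (Ugt1a6b). In each of the 5 genes the FFPE and fresh-frozen ranges stood apart at both times and in both treatments, as they did in 61.0% (18 h) and 42.9% (3 wk) of all genes in control and 71.5% and 51.0% in furan livers. Of all 13034 genes tested at 18 h, 8 had a lower fold change than Ugt1a9, 14 than Ugt1a1 and 28 than Ugt1a6a. At 3 wk, of 12145 genes, 100 were lower than Ugt1a9, 143 than Ugt1a1 and 70 than Ugt1a6a. In furan livers the same 5 genes fell at both times, with log2 fold changes of -5.18 to -4.06 at 18 h and of -4.28 to -3.35 at 3 wk. There, 6 of 7 tested members were lower at 18 h against 36.2% of genes (73.0% called), and 5 of 7 at 3 wk against 22.9% (45.3% called).

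The rare members differed from these and from each other. Ugt1a2 had 10, 5 and 11 counts in control fresh-frozen livers and 14, 6, 32 and 23 counts in the shallower control 18 h libraries. In CPM it went from 0.176 ± 0.0687 (SD, n = 3) to 1.11 ± 0.686 (SD, n = 4), every 18 h library above every fresh-frozen one. It rose by 2.96 ± 0.68 (SE) on the log2 scale in control (edgeR adjusted p = 0.00321) and by 2.86 ± 0.47 in furan livers (edgeR adjusted p = 0.000176), against 34.2% and 36.8% of genes higher. At 3 wk Ugt1a2 had 0 to 2 counts per control library, too few to test. In furan livers at 3 wk it had 0 to 12 counts and a log2 fold change of 2.79 ± 1.15 (SE), with an adjusted p of 0.0698 by edgeR, 0.0335 by DESeq2 and 0.00862 by edgeR without furan animal 42. Ugt1a10 had a log2 fold change of -0.69 ± 0.58 (SE, edgeR adjusted p = 0.314) at 18 h in control livers, and fell by 2.42 ± 0.56 (edgeR adjusted p = 0.00213) in furan livers, where its fresh-frozen level was the higher; in the single model of all 6 groups the furan value was -2.42 with an edgeR adjusted p of 0.0886. At 3 wk Ugt1a10 had 0 counts in all 4 control libraries, which allows up to 0.286 to 0.818 CPM from counting error alone, and 6, 0, 0 and 9 counts in furan libraries 41 to 44. Ugt1a7c passed the count filter in none of these comparisons. In the control 3 wk library of animal 06 it had 53 counts, while Ugt1a6a and Ugt1a9 had 0 and Ugt1a5 had 1, and the other 3 control libraries had no Ugt1a7c counts.

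**Figure D4:**
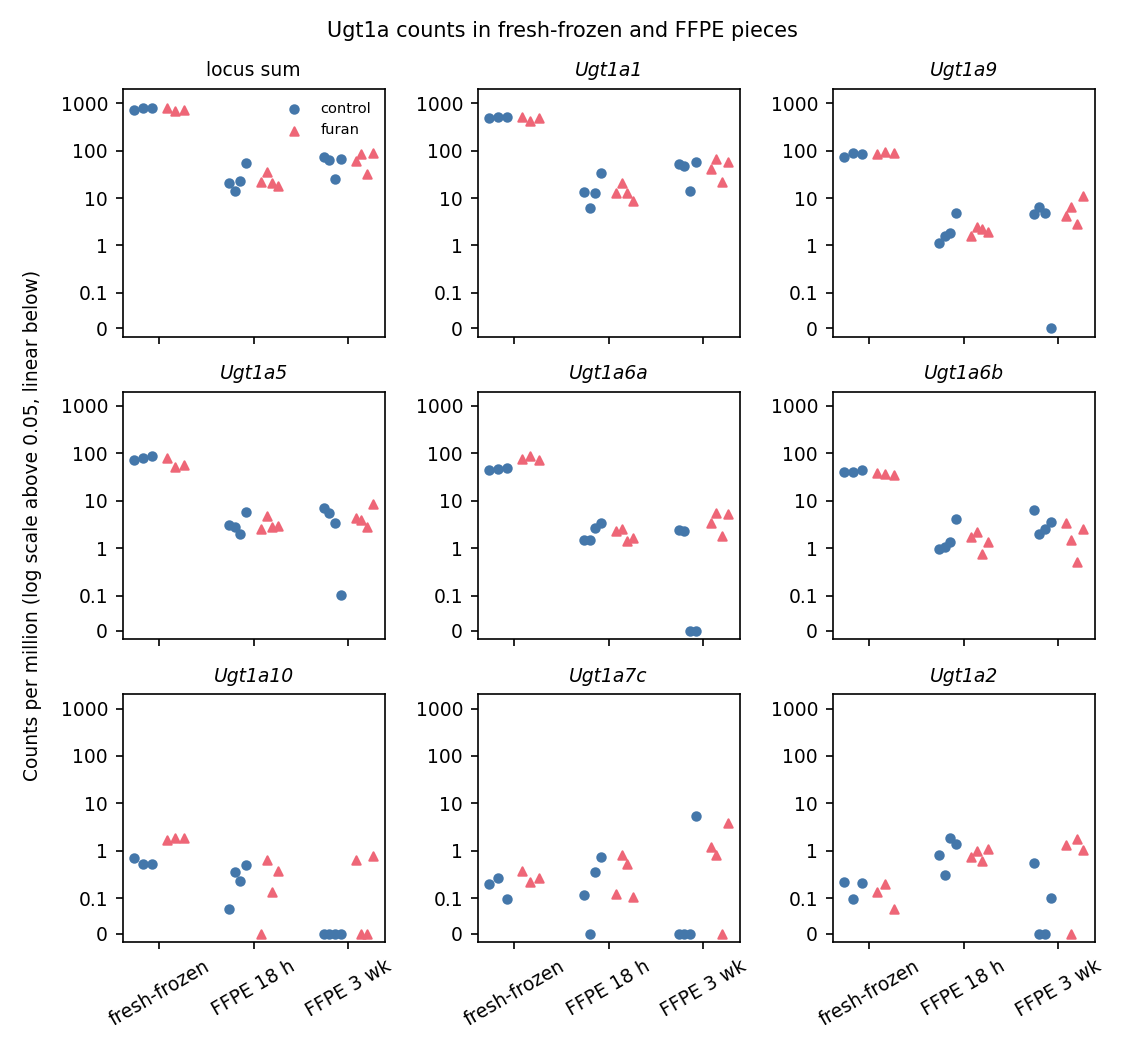
CPM of the locus sum and the 8 Ugt1a genes by kind of piece, one point per library, control (blue circles) and furan (red triangles); the axis is logarithmic above 0.05 and linear below, so 0 is shown. The locus lies at 697 to 794 CPM in fresh-frozen and 13.9 to 89.7 CPM in FFPE pieces, whereas Ugt1a2 is higher in every 18 h library than in any fresh-frozen one.

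The make-up of the locus varied more among FFPE pieces. Ugt1a1 took 44.8% to 63.6% of locus counts in the 4 control 18 h libraries and 57.3% to 86.5% in the 4 control 3 wk libraries, against 65.9% to 67.8% in the 3 fresh-frozen controls. Ugt1a2 took 4.26% ± 2.78 at 18 h (SD, n = 4) against 0.0233% ± 0.00954 in fresh-frozen controls (SD, n = 3). Per kilobase the order in control livers at 18 h was Ugt1a1 (18.1 ± 13.3 CPM per kb), Ugt1a5 (3.84 ± 1.83), Ugt1a9 (2.69 ± 1.96), Ugt1a6a (2.28 ± 0.945), Ugt1a6b (1.89 ± 1.53), Ugt1a2 (1.23 ± 0.763), Ugt1a7c (0.330 ± 0.355) and Ugt1a10 (0.310 ± 0.199), all CPM per kb with SD and n = 4. Only the step from Ugt1a1 to Ugt1a5 separated neighbours without overlap. At 3 wk Ugt1a1 again stood apart (47.4 ± 21.7 CPM per kb), and every later neighbour overlapped the next.

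Other UDP-glycosyltransferases, which do not share exons in this way, were also lower. In control livers 8 of 9 tested fell at 18 h (median -0.80 on the log2 scale) and 6 of 9 at 3 wk (median -1.21), against 33.8% and 13.0% of all genes lower and a median of 0.02 and -0.03 over all genes. The lowest was Ugt3a1, at -4.68 ± 0.22 and -4.48 ± 0.71 (SE), which was picked for its value; without it the list ran from -1.36 to -0.61 at 18 h and from -1.35 to -0.30 at 3 wk. The difference between the lists was not tested.

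Genes were also grouped by how far their own exon sequence, not annotated to any other gene, lies from the transcript end. At 18 h the 11586 control-liver genes with own sequence at the very end had a median log2 fold change of 0.01, with 3.10% below -2. The 542 genes whose own sequence began under 500 nt from the end but not at it had a median of 0.087 (3.87% below -2), the 122 at 500 to under 1000 nt a median of -0.65 (17.2%), and the 103 non-member genes at 1000 nt or more a median of -0.50 (16.5%). At 3 wk the 4 classes had medians of -0.02 (10814 genes, 3.87% below -2), -0.10 (516 genes, 5.43%), -0.79 (113 genes, 12.4%) and -0.73 (95 genes, 18.9%). Both classes beyond 500 nt were lower than the nearer ones, and the medians did not fall further from the third class to the last. The own sequence of the Ugt1a genes begins 1311 nt or more from the end, and the 5 abundant members lay far below the median of that class. These medians are descriptions, and the part of position in the fall of the locus was not tested.

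**Figure D5:**
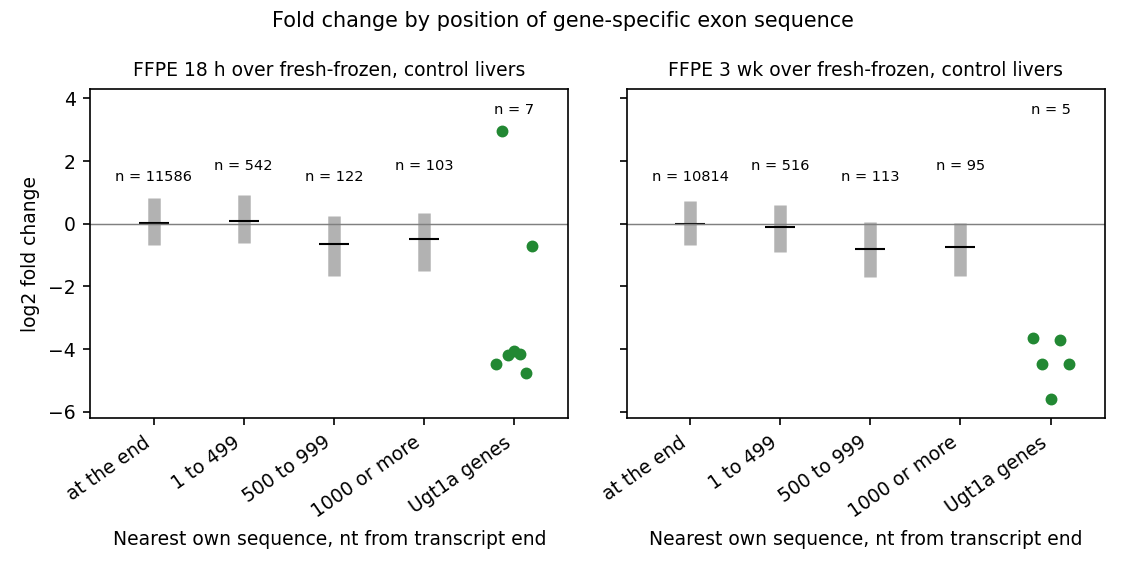
log2 fold change of FFPE over fresh-frozen control livers (left 18 h, right 3 wk) for genes grouped by the distance of their nearest own exon sequence from the transcript end; bars span the middle quartiles, black marks are medians, and green points are the tested Ugt1a genes. From the end class outward the medians are 0.01, 0.087, -0.65 and -0.50 at 18 h and -0.02, -0.10, -0.79 and -0.73 at 3 wk, and the abundant Ugt1a genes lie at -3.64 or lower.

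The genes most like the locus were sought over all 22 libraries, after the mean of each kind of piece was removed. For the locus sum they were Zbed6 (Pearson r = 0.917), Usp34 (0.890) and Plekha5 (0.890), out of 9584 genes compared. For Ugt1a1 they were Plekha5 (0.896), Pik3ap1 (0.895) and Zbed6 (0.893), and for Ugt1a9 Arfgef2 (0.952), Helz (0.944) and Dgat1 (0.943). The Ugt1a9 values rest in part on 1 library, control animal 06 at 3 wk, where Ugt1a9 and Helz had 0 counts: without it r was 0.726, 0.647 and 0.642. For the sum and Ugt1a1, leaving out any 1 library gave r of 0.800 or higher. The libraries share animals and differ in depth, so these values describe likeness only.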

How the data were processed

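Liver RNA was poly(A)-selected and sequenced from unstranded libraries, per the labels' protocols. The authors deposited raw integer counts per gene symbol. CASAVA 1.8.2, STAR 2.3.0, featureCounts 1.4.4 and mouse build mm9 are named in the submitters' processing notes, and the counting settings are not given in the sources used here. Of 24 columns, 22 matched a labelled animal, and 2 columns with unlabelled numbers were not used.

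Each comparison was fitted to the whole table on its own groups with edgeR 4.0.16 in R 4.3.3 (filterByExpr, TMM scaling, quasi-likelihood F test, Benjamini-Hochberg adjustment, threshold 0.05). The locus sum was fitted after the 8 genes were replaced by their total. Standard errors are the log2 fold change divided by the root of F. CPM uses library totals and fold changes use TMM, so their ratios differ slightly. On simulated counts with a dispersion of 0.02, the fresh-frozen furan fit (13677 genes) recovered 99.1% of 2-fold changes with 4.33% false calls. The 18 h interaction fit (13433 genes) recovered 74.7% of 2-fold changes with 5.41% false calls. Changes were placed only in genes of higher level than Ugt1a10, so recovery at its level is unknown. Each simulated gene kept the same mean level in fresh-frozen and 18 h libraries, unlike the Ugt1a genes. Recovery of an interaction at their 18 h counts is therefore unknown. The spread of the 3 wk libraries was not simulated. For furan against control within a kind of piece, p-values measure the spread between animals. Comparisons between kinds of piece, interactions and the single model took pieces of the same liver as separate libraries, except under the replicate block. Pieces with the same animal number come from the same liver: after group means were removed, fresh-frozen and 18 h pieces of an animal correlated at 0.390 to 0.506, and fresh-frozen and 3 wk pieces at 0.0829 to 0.255, across genes, each highest with its own partner in 6 of 6. Alternatives were DESeq2 1.42.0, relative log expression scaling, no filter, a single model, thinning to 3666173 counts, Rn45s left out of library sizes, each library left out and a replicate block; summing Ugt1a6a with Ugt1a6b and the position classes were added after seeing the data. All members were named, and from each other list at most the 3 genes with the largest fold change among those passing in fresh-frozen livers. Cyp1a2, Cyp1a1, Cyp2b10, Tiparp, Ugt3a1, Slc35d1, Akr1a1, Ugp2, Rgn, Hmox2, Fabp2 and Cela1 were named after their values were seen. Members and lists were chosen with earlier results of these data known. The 22417 symbols matched to GENCODE M21 models were 93.3% of the table.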

Additional observations from a re-analysis of the deposited data

Results flagged for a closer look

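In 3 of 35 groups of 4 libraries, the highest library of a member stood apart from the other 3 (gap over range above 0.829, which chance gives in about 1 of 20 groups of normal values). These were Ugt1a5 in furan 18 h livers, where animal 42 had 4.68 CPM, Ugt1a6b in control 18 h livers, where animal 06 had 4.12 CPM, and Ugt1a7c in control 3 wk livers, where animal 06 had 5.37 CPM. In the Ugt1a7c group the other libraries had no counts, so the rate for normal values does not apply to it. The 35 groups include the locus sums and share libraries, so they are not independent. The libraries of animals 06 and 42 at 18 h were also those with the highest locus sum of their group and the highest Rn45s share, 37.3% and 16.5%.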

How the results depend on the processing

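The locus sum was lower in FFPE than in fresh-frozen pieces, past the threshold, in all 4 comparisons and under every alternative run, from -5.19 to -3.31 on the log2 scale over the libraries left out. With the replicate block (animal as a term) the locus sum had -4.28 and -4.04 (control, 18 h and 3 wk) and -4.99 and -3.75 (furan), and the interaction terms were -0.69 and 0.30. Against the main fits, blocking changed none of the calls of members or sums. It turned the interaction of Ugt1a5 at 18 h to -0.13 (-0.24 in the same animals without the block). That of Ugt1a7c at 3 wk turned to 1.74. In the same animals without the block, Ugt1a2 passed in furan 3 wk against fresh-frozen pieces (log2 fold change 3.20, edgeR adjusted p = 0.00862). With the block it did not.

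Members called for furan in fresh-frozen livers went from 2 to 0 in the single model and to 1 (Ugt1a6a) after thinning, where Ugt1a10 was not tested, and 2 to 3 were called with a library left out. At 3 wk 1 member was called in the single model. All genes called for furan went from 2162 to 138 (fresh-frozen), from 1077 to 225 (18 h) and from 99 to 2030 (3 wk) in the single model; thinning left 754 in fresh-frozen livers, and at 3 wk DESeq2 gave 353 and no filter 194. With a library left out these counts were 864 to 1620, 633 to 1285 and 17 to 173, and 1978 to 4398 for control 3 wk pieces (3188 with all). Interaction calls reached 2 with the block at 18 h, and 19 by DESeq2 or the single model at 3 wk.

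Signs turned in these cases, none past the threshold except the first. Summing Ugt1a6a with Ugt1a6b gave 0.29 (fresh-frozen) and 0.33 (3 wk) where Ugt1a6b alone was negative. In fresh-frozen livers Ugt1a9 was -0.069 after thinning and -0.035 to 0.068 with a library left out. For furan at 18 h the ranges over left-out libraries, positive only without control animal 06, were -0.78 to 0.36 (sum), -0.86 to 0.40 (Ugt1a1), -0.56 to 0.33 (Ugt1a5), -0.60 to 0.087 (Ugt1a6a), -0.87 to 0.45 (Ugt1a6b) and -0.75 to 0.46 (Ugt1a9). For furan at 3 wk they were -0.044 to 0.43 (sum), -0.18 to 0.33 (Ugt1a1) and -0.12 to 0.68 (Ugt1a5). For the interaction at 18 h they were -0.66 to 0.48 (sum), -0.66 to 0.59 (Ugt1a1), -0.42 to 0.26 (Ugt1a2), -0.10 to 0.70 (Ugt1a5), -0.47 to 0.71 (Ugt1a6b) and -0.65 to 0.45 (Ugt1a9). Other causes were not tested. Depth limits FFPE values, where a member often rests on under 50 counts.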
